A study of Mus musculus with 310 samples.

Results

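Adamts1 encodes a secreted metalloprotease of the ADAMTS family, and it was followed here as 1 gene of the 14068 in a count table of single epidermal cells. It was chosen by its counts in these same cells, which had been seen to be nearly absent in 1 of the study's groups, so its difference between the groups is given as a description, without a test. The 310 cells came from the tail skin of female mice of a mixed CBA and C57BL/6 background that carried Lrig1-EGFP-ires-CreERT2 together with the reporter Rosa26-fl/STOP/fl-tdTomato, in which a single topical dose of hydroxytamoxifen marks Lrig1-expressing cells and all their progeny with tdTomato. Lrig1 marks stem cells of the upper hair follicle, and the sort kept every tdTomato-positive keratinocyte, so the cells are a mixture of the states this lineage can reach. Full-length Smart-seq2 libraries were made from cells sorted into plates. The mice belonged to the study's ageing experiment, in which mice were marked as young adults, wounded or left unwounded, and kept for most of a year, and the labels give week 38.

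The cells fell into 2 groups labelled 38w and 38wUW, with 2 replicates each. Group 38w held RepI, with 70 cells on plates C114 and C118, and RepL, with 75 cells on plate C119. Group 38wUW held RepM, with 82 cells on plate C128, and RepN, with 83 cells on plate C129. The labels do not spell out UW, do not say which group carried a healed wound and give no age beyond the week, so every difference below is given as 38w against 38wUW and its direction relative to wounding is not stated. Each replicate sits on plates of its own, so replicate and plate cannot be told apart. Nothing in the labels says how many mice a replicate held, and the spread between replicates may in part be technical. Each library is counted as a cell, with a doubt for 2 libraries named MBULK and on plate C114, where 53 libraries came from 42 wells. There 11 wells hold 2 libraries each, 1 of them with the suffix IDTILL in its name, and the labels do not say whether such a pair is 1 cell or 2. The r between the 2 libraries of a well, over all genes on the log scale, was 0.447 to 0.724, and for 0 of the 11 pairs was it the highest r of the unsuffixed library on that plate. In all, 15 libraries carry an unexplained suffix, 13 with IDTILL on C114 and 2 with MBULK, 1 on C119 and 1 on C129. The paper also describes mini-bulk libraries of many sorted cells, and the labels do not say whether the 2 MBULK libraries are single cells.

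ADAMTS proteases are made as inactive precursors, cut by furin-type convertases and released into the extracellular matrix. There ADAMTS1 is known to cleave large chondroitin sulphate proteoglycans such as versican and aggrecan, and it can shed membrane-bound ligands of the EGF receptor. It is inhibited by the tissue inhibitor TIMP3. In many cell types its transcript is inducible within a short time of stimulation, like that of the immediate early genes Fos, Egr1 and Atf3. In healing skin wounds the protease is known from keratinocytes and fibroblasts.

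In the reference annotation of build GRCm38 the gene lies on the minus strand of chromosome 16, from 85793827 to 85803113, and its exons cover 5302 bases. The 250 bases before its start, chr16:85803114-85803363, are printed from RefSeq's GRCm38.p6 assembly, 5′ to 3′ on the gene's strand. They were searched for short motifs, and no link between these and the genes described further down was tested. Capitals mark the TATAAA and GGGCGG matches.

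Adamts1 promoter: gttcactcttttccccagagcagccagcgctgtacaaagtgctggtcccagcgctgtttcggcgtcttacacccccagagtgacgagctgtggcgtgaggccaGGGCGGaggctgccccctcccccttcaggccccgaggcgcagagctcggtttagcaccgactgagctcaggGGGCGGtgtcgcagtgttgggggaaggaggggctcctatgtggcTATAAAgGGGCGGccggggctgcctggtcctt

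Counted back from the start, TATAAA was found once, at base -32, with both strands searched here and for each motif below, and 12.4% of 32851 mouse promoters held it in a window of this length. GGGCGG, the GC box read by SP and KLF factors, was found at bases -147, -76 and -25, and 32.7% of promoters held at least 1 match. TGACG, the core of sites for ATF and CREB factors, was found once, at base -170, against 17.8% of promoters. TGANTCA, the site of FOS and JUN dimers, was not found in this window, and 6.75% of promoters held it. CACCC, which KLF factors also bind, overlapped none of these matches and was found at base -181, against 52.0% of promoters. The cells' data hold no binding measurement, so these matches describe letters only.

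The libraries held 11703 to 721532 reads per cell, with a median of 61288, and the cells of a replicate summed to between 5471194 reads in RepM and 12945796 in RepN. Ribosomal protein genes took 31.9% of the reads on plate C114, against 3.61% to 6.89% on the other plates, and mitochondrial transcripts ranged from 2.77% on C114 to 33.8% on C118. Krt14, the keratin of basal keratinocytes, was found in 88.0% to 91.4% of cells of the 4 replicates, at 825 to 19617 CPM (reads per 1000000 reads). Summed markers of fibroblasts, a known source of Adamts1, were at 62.7, 21.4, 17.4 and 8.42 CPM in RepI, RepL, RepM and RepN, with the 5 of 6 fibroblast markers that the table holds. In 38wUW they were at 10.8 CPM in cells with an Adamts1 read and 11.2 CPM in cells without. Endothelial Kdr and Tie1 together were at or below 2.38 CPM in every replicate, while Pecam1 was found in every cell and was therefore left out of that sum. Smooth muscle, melanocyte, T cell and macrophage lists stayed at or below 14.8 CPM. Col3a1, Cdh5, Myh11, Mlana, Cd3e and Cd207, defining markers of these cell types, have no row in the table used here.

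Adamts1 transcripts were found in 43 of the 310 cells, and 38 of these were 38wUW cells. On plate C114, 4 of 53 cells had a read (7.55%), with 1, 4, 4 and 14 reads. Of these, the cell with 1 read and a cell with 4 reads are the unsuffixed and the IDTILL library of the same well, so that 3 of the 42 wells were positive. On C118, 1 of 17 cells had a single read (5.88%). On C119, which is the whole of RepL, 0 of 75 cells had one, which allows a share of up to 4.0%. On C128, 16 of 82 cells were positive (19.5%, 95% Wilson interval 12.4 to 29.4), and on C129, 22 of 83 (26.5%, 18.2 to 36.9). The 38w plates all lay below both 38wUW plates, and the pooled RepI share of 7.14% had an interval of 3.09 to 15.7, which reached into that of RepM but not into that of RepN. These intervals cover counting error only, because cells of a plate share their preparation.

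**Figure D1:**
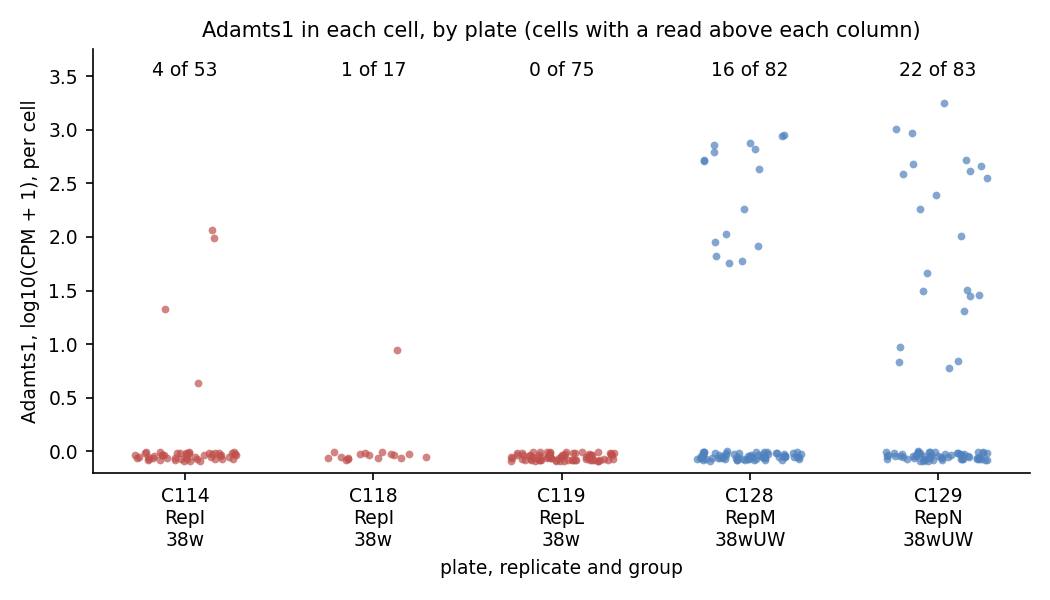
Adamts1 in every cell, as log10(CPM + 1) on the vertical axis, by plate, replicate and group on the horizontal axis, with red points for 38w and blue points for 38wUW cells and the number of cells with a read above each column. Cells without a read are spread slightly below 0 for visibility, and the high values lie on C128 and C129.

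Averaged over replicates, the share of positive cells was 3.57% ± 5.05 (SD, n = 2) in 38w and 23.0% ± 4.95 (SD, n = 2) in 38wUW, a difference of -19.4 percentage points. With each well counted once, an alternative added after seeing the data, RepI had 4 positive wells of 59 (6.78%), and without the 15 suffixed libraries it had 4 of 57 (7.02%). Asking for at least 2 reads in a cell gave 2.14% ± 3.03 and 19.99% ± 2.40. Asking for at least 5 reads, a cutoff chosen after seeing the data, left 1 cell of 38w and 27 cells of 38wUW. Since depth differed between plates, each cell was also thinned at random to 20000 reads, which lost 7 cells of 38w and 26 of 38wUW that were shallower. After thinning, RepI kept 2 positive cells of 68, RepL 0 of 70, RepM 13 of 64 and RepN 16 of 75. The replicate means were then 1.47% ± 2.08 and 20.8% ± 0.722 (SD, n = 2), so the gap was of about the same size at equal depth.

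By level, RepI stood at 2.47 CPM from 24 reads, RepL at 0 CPM, RepM at 130 CPM from 710 reads and RepN at 156 CPM from 2014 reads. The group means were 1.23 ± 1.75 CPM and 143 ± 18.2 CPM (SD, n = 2). In each 38wUW replicate the level was more than in both 38w replicates, and the groups did not overlap. The 38wUW mean was 57.8 times the level of RepI. No fold is given against RepL, since a single positive cell can hold many reads. The edgeR fit across all genes put Adamts1 at a log2 fold change of -6.50 for 38w over 38wUW, given without an SE or a p. With every cell given equal weight it was -5.22, and with RepI taken from C118 only, where 1 read was left, it was -9.45.

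A few cells carried most of these reads. In RepM the 16 positive cells held from 1 to 248 reads with a median of 19.0, and the richest cell held 34.9% of the replicate's Adamts1 reads. In RepN the 22 positive cells held from 1 to 1269 reads with a median of 16, and 1 cell alone held 63.0% of them. That cell was also the deepest of the data set, with 721532 reads, and stood at 1759 CPM, the highest of all cells, followed by cells at 1009, 928, 888 and 870 CPM. Leaving out the richest cell of each replicate lowered RepM to 92.5 CPM and RepN to 60.9 CPM, with RepI at 1.04 CPM. Equal weight per cell brought RepM and RepN to 80.5 and 84.6 CPM, against 3.48 and 0 CPM in RepI and RepL.

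Most 38wUW cells had no Adamts1 read, and the positive ones reached a median of 468 CPM on C128 and 142 CPM on C129. The 5 positive cells of RepI had a median of 20.2 CPM, so both the share of positive cells and their level were lower there. At this depth a cell without a read cannot be told from one with few transcripts. Cells with only 1 or 2 reads were also looked at by well, since the richest well could spill into its neighbours. On C128, 1 of 2 such cells shared a row or column with it, where 22.2% of all other cells did, and on C129, 1 of 5, where 19.5% did. Positive cells were deeper than negative ones. On C129 their median depth was 176684.5 against 90508 reads and on C128 54696 against 43766.5 reads. At equal depth the number of genes found was close, with medians of 2813 and 2781 on C128 and 2470.5 and 2460 on C129.

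The batch labels cannot separate plate from group, but every batch held plates of both groups. In 1 batch tag, C118 and C119 (5.88% and 0% positive) were paired with C129 (26.5%), and C114 (7.55%) with C128 (19.5%). A second tag exchanges C128 and C129, and the 38w plates were lower in each batch of it too. A fit over plates with the first tag as a block gave a log2 fold change of -7.14.

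The other genes give the setting for this pattern. Of all 14068 genes, 27.6% had a lower share of positive cells in both 38w replicates than in both 38wUW replicates, so the order alone is common. By the ratio of mean CPM, Adamts1 was second among the 8342 genes found in at least 10% of cells of both 38wUW replicates, at 116. Rab6b, which encodes a small GTPase of Golgi transport, was first, with 0.206 CPM in RepI from 2 reads, 0 CPM in RepL, 26.9 CPM in RepM and 27.3 CPM in RepN. Rdh1, a retinol dehydrogenase, followed at 33.3, and Plag1, a zinc finger transcription factor, at 32.8. By the difference in share it ranked only 335th, since many genes that are found in more cells had wider gaps. These ranks use the contrast for which Adamts1 was chosen and are a description. The 10% filter was set on 38wUW only, where Adamts1 is high, so the CPM rank does not measure how rare the pattern is.

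Cells were then set beside the epidermal compartments, each cell being assigned to the marker list on which it scored highest. The share of Adamts1-positive cells was higher in 38wUW than in 38w for each of the 6 lists. Cells scoring highest on differentiated infundibulum and duct markers (Krt79, Cst6, Defb6) were positive in 16 of 44 cases in 38wUW (36.4%, 23.8 to 51.1) and in 1 of 19 in 38w (5.26%, 0.935 to 24.6). Sebocyte-marker cells gave 5 of 18 against 0 of 13. Junctional zone cells, the home of Lrig1-expressing stem cells, gave 4 of 19 against 1 of 6, and bulge-marker cells 6 of 40 against 0 of 14. Basal-marker cells gave 5 of 27 against 2 of 55, and cells of the differentiated interfollicular epidermis 2 of 17 against 1 of 38. In 38wUW the gene was found in cells of all 6 lists, and the intervals of the 6 lists overlapped.

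**Figure D2:**
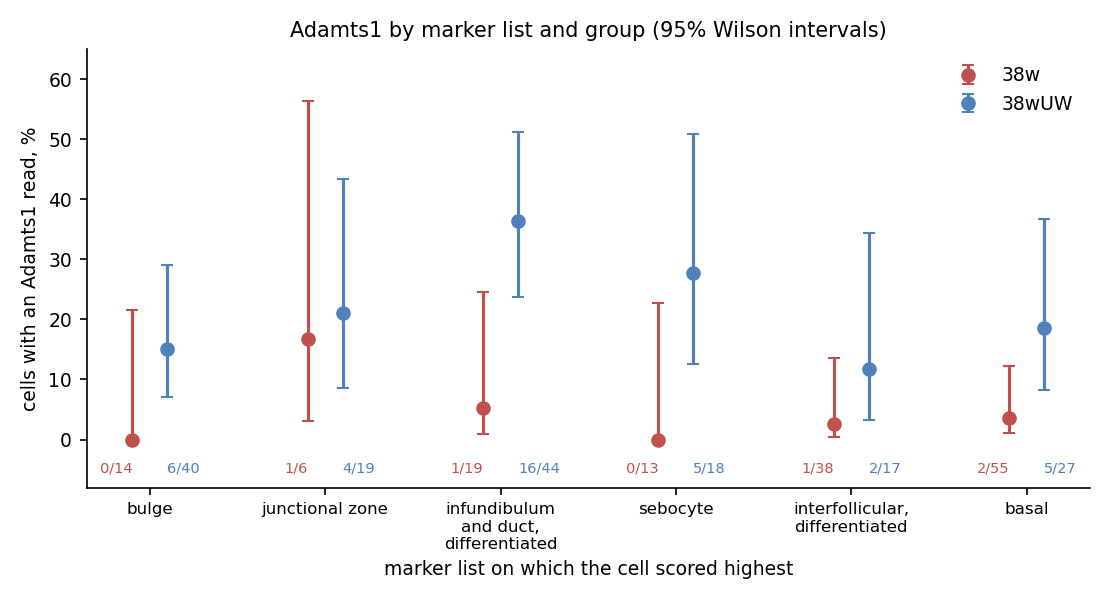
Share of cells with an Adamts1 read (vertical axis, in percent) by the marker list on which a cell scored highest (horizontal axis), for 38w in red and 38wUW in blue, with 95% Wilson intervals that cover counting error only and the number of positive cells over all cells below each point. The cells of a group's replicates are pooled, and the 38wUW point lies above the 38w point in each of the 6 lists.

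The make-up of the groups differed along the same lists, with 55 of 145 cells of 38w scoring highest on basal markers against 27 of 165 in 38wUW. All 6 basal markers had a log2 fold change above 0 for 38w over 38wUW, where 46.6% of all tested genes were below 0. In CPM, 4 of them were higher in both 38w replicates, where 12.1% of all genes were. None of the 6 was called, with a smallest adjusted p of 0.615 in edgeR. The part of this make-up in the Adamts1 difference was not tested. The shares within each list use the counts for which the gene was chosen and are a description. Within the infundibulum and duct list the replicates themselves stood apart, with 5 of 26 cells in RepM (19.2%) and 11 of 18 in RepN (61.1%). The lists are ranges of a score rather than cell types, and 68 of the 310 cells lay within 0.25 score units of another list.

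Within its own family Adamts1 was the most abundant protease of the 38wUW cells. Of the 19 ADAMTS protease genes, 12 were in the table. Per length, as reads per kilobase of exon and per 1000000 reads, Adamts1 reached 24.5 in RepM and 29.3 in RepN. Adamts5, the other well known aggrecan-cleaving protease, stood at 4.84 in RepM, where it was next, and at 3.92 in RepN. Adamts18 stood at 0.198 in RepM and at 5.21 in RepN, where it was next, Adamts9 at 0.219 and 1.07, and Adamts2, which trims the ends of fibrillar procollagens, at 0.685 and 0.298. In the 38w replicates the order was different, because Adamts1 fell to 0.465 in RepI and 0 in RepL, where Adamts5 led at 2.20 and 0.767.

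**Figure D3:**
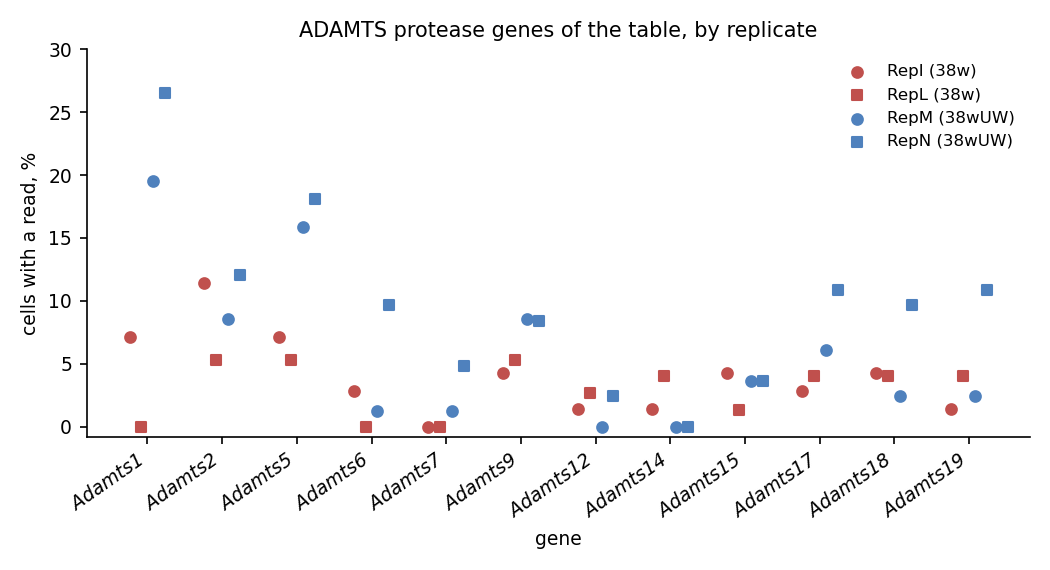
Share of cells with a read (vertical axis, in percent) for the 12 ADAMTS protease genes of the table (horizontal axis), with 1 point per replicate, red for 38w and blue for 38wUW. Adamts1, Adamts5, Adamts7, Adamts9 and Adamts17 have both 38wUW points above both 38w points, an order shown by 27.6% of all genes. Genes other than Adamts1 and Adamts5 stay at or below 12.05%.

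In the edgeR quasi-likelihood test over all genes, 0 of 11757 genes (0.0%) passed an adjusted p of 0.05 between the groups, while 949 had an unadjusted p under 0.05. DESeq2 on the same sums called 67, or 0.57%. Of the 11 other ADAMTS proteases in the table, 7 could be tested and 0 were called. Of these 7, 6 had a log2 fold change below 0, with a median of -1.65, against 46.6% below 0 and a median of 0.12 over all genes tested. With DESeq2's size factors 5 of the 7 were below 0, and without RepN 4 of 8. Adamts9, a protease of versican, had 0.823, 1.21, 3.29 and 16.1 CPM in RepI, RepL, RepM and RepN and a log2 fold change of -3.0 (SE 1.33, adjusted p = 0.615 in edgeR). Adamts18 had 1.75, 1.72, 2.01 and 53.1 CPM and a log2 fold change of -3.72 (SE 1.37, adjusted p = 0.615 in edgeR), and without RepN it was 0.022, so the difference rested on that replicate.

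Adamts5 is the gene next to Adamts1 on chromosome 16, from 85856173 to 85901828, also on the minus strand and 53.1 kb away. It stood at 23.8, 8.28, 52.3 and 42.3 CPM in RepI, RepL, RepM and RepN and was found in 7.14%, 5.33%, 15.9% and 18.1% of their cells. Both 38w replicates thus lay below both 38wUW replicates, by much less than for Adamts1. By share of cells 27.6% of all genes showed this order, and by CPM 26.4%. Its log2 fold change of -1.30 (SE 0.92) did not pass the test (adjusted p = 0.713 in edgeR), and it was 0.76 with RepI taken from C118 only. Within the 38wUW plates Adamts5 was found in 5 of 16 Adamts1-positive and 8 of 66 Adamts1-negative cells on C128. On C129 it was found in 6 of 22 and 9 of 61. Adamts9 was found in 3 of 16 against 4 of 66 cells on C128 and in 4 of 22 against 3 of 61 on C129. Of the 11 other proteases, 4 (Adamts5, Adamts9, Adamts15 and Adamts17) were found in a higher share of Adamts1-positive cells on both plates and 2 (Adamts6 and Adamts18) in a lower share on both. Adamts18 was found in 0 of 16 against 2 of 66 cells on C128 and in 2 of 22 against 6 of 61 on C129. Positive cells were deeper on both plates and held more genes, with medians of 3814.5 against 3268 on C128 and 4140 against 3413 on C129. The same count was not taken over all genes, so 4 against 2 is no result about the family. The part of depth in these shares was not tested.

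The other 4 protein-coding genes of the table within 1 Mb of Adamts1 were found at closer shares in the groups. App, the amyloid precursor protein, was found in 84.3% and 88.0% of cells in RepI and RepL and in 97.6% and 95.2% in RepM and RepN. Atp5j, a subunit of mitochondrial ATP synthase, was found in 95.7%, 89.3%, 93.9% and 88.0%. Gabpa, an ETS family transcription factor, was found in 18.6%, 25.3%, 19.5% and 30.1%. Jam2, a junctional adhesion molecule, was found in 4.82% of cells or fewer everywhere.

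**Figure D4:**
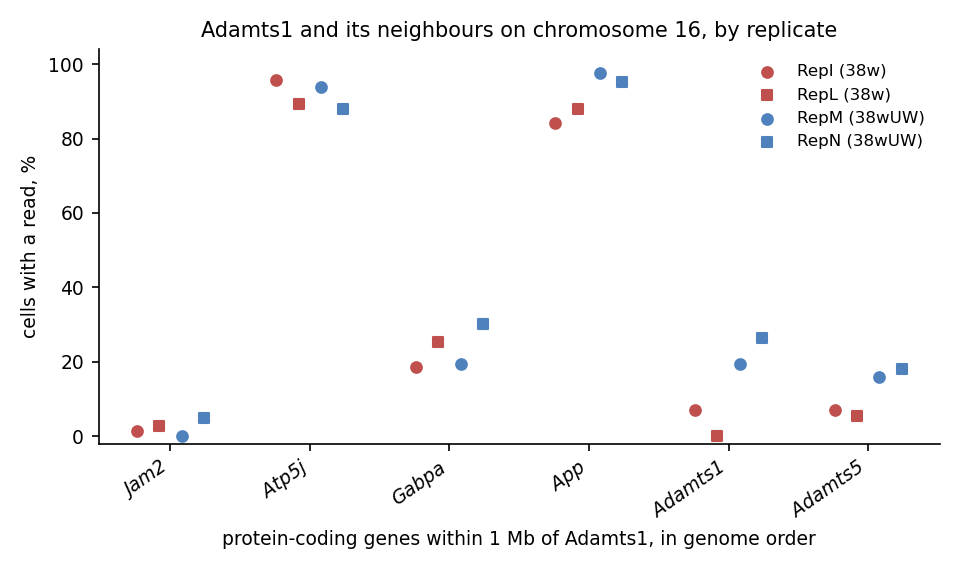
Share of cells with a read (vertical axis, in percent) for Adamts1 and the 5 other protein-coding genes of the table within 1 Mb, in genome order on the horizontal axis, with 1 point per replicate, red for 38w and blue for 38wUW. App, Adamts1 and Adamts5 have both 38wUW points above both 38w points, an order shown by 27.6% of all genes.

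Genes of the pathway around the protease were read from fixed lists, and 0 members of any list were called by edgeR between the groups. Of 9 tested genes of maturation and inhibition, 5 had a log2 fold change below 0. Timp3, the inhibitor of ADAMTS proteases, was the most abundant, at 59.1, 124, 155 and 254 CPM in RepI, RepL, RepM and RepN, with a log2 fold change of -0.92 (SE 0.85, adjusted p = 0.782 in edgeR). Furin, which cuts the precursor, stood at 10.8, 7.76, 11.9 and 16.2 CPM. Both groups thus held transcripts for activation and for inhibition.

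Of 12 tested substrates and binding partners, 8 were below 0, with a median of -0.72. Cd44, the hyaluronan receptor, was highest, at 302, 305, 673 and 670 CPM in RepI, RepL, RepM and RepN. Its replicates were close within a group and apart between groups, but its log2 fold change of -0.90 (SE 0.91) did not pass the test (adjusted p = 0.800 in edgeR) and was 0.22 with RepI taken from C118 only. Sdc4, the proteoglycan syndecan 4, followed the same order at 178, 188, 332 and 300 CPM, with a log2 fold change of -0.54 (SE 0.85, adjusted p = 0.865 in edgeR). In CPM, 7 of the 14 list members in the table were lower in both 38w replicates, where 26.4% of all genes were. Of 11 tested genes of the EGF receptor axis, 7 were below 0. Hbegf, a heparin-binding ligand, was at 34.1, 57.1, 58.1 and 211 CPM (log2 fold change -1.31, SE 0.90, adjusted p = 0.707 in edgeR). Egfr was at 88.7, 199, 95.4 and 141 CPM, with replicates of the groups interleaved. Of 5 tested ADAMTS-like proteins, which lack the protease domain, 1 was below 0, and of 7 other matrix metalloproteases, 3.

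Among immediate early genes, 29 of the 35 tested had a log2 fold change below 0 (82.9%, against 46.6% of all genes), with a median of -0.57, and 27 of 35 were below 0 with DESeq2's size factors. In CPM, 21 of the 36 in the table were lower in both 38w replicates, where 26.4% of all genes were. Egr1, a zinc finger factor of the serum response, stood at 168, 293, 582 and 1051 CPM in RepI, RepL, RepM and RepN (log2 fold change -1.58, SE 0.95, adjusted p = 0.679 in edgeR). Fos, the most abundant of them, was at 620, 2243, 1942 and 2761 CPM, so that RepL lay above RepM. None of the 35 passed the test. Without RepL 4 of 36 were called, when 9.46% of all genes were, and they were named after their values were seen. Egr3, Dusp6 and Errfi1 were lower and Gadd45b was higher in 38w there. The median relative to all genes ranged from -0.31 to -1.01 over the alternatives.

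The genes that go with Adamts1 were then sought inside the 38wUW plates, which held enough cells of both kinds. On C128, 13 of 64 thinned cells had an Adamts1 read, and on C129, 16 of 75. For each of the 6256 genes found in at least 10% of cells on both plates, Pearson's r with Adamts1 was taken on the log scale within each plate and averaged over the plates. The mean r ran from -0.266 to 0.334 with a median of -0.0019, and 51.0% of genes had the same sign on both plates. Only 132 genes (2.11%) reached 0.2. The cells of a plate share their preparation, and no r is given a p-value.

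The 10 highest genes were Prelid3b at 0.334, Myadm at 0.330, Sirt1 at 0.321, Selenoi at 0.320, Abhd4 at 0.317, Cyp27a1 at 0.313, Brd1 at 0.306, Ier3 at 0.303, Rab6a at 0.302 and Rbm39 at 0.298. Sirt1 is an NAD-dependent deacetylase, Cyp27a1 a sterol hydroxylase of mitochondria, Ier3 an immediate early response gene and Rbm39 a splicing factor. Ier3 was found in 61.5% of cells with and 51.0% of cells without an Adamts1 read on C128, and in 81.3% and 37.3% on C129. Brd1, a chromatin reader, was found in 53.8% and 27.5% on C128 and in 56.3% and 25.4% on C129. For Sirt1 the plates were unlike each other, with an r of 0.093 on C128 and 0.550 on C129. The lowest were Ddr1, a collagen receptor kinase, at -0.266, Psma2, a proteasome subunit, at -0.236, and Ost4, at -0.231. Ddr1 was found in 15.4% of cells with and 51.0% of cells without an Adamts1 read on C128, and in 31.3% and 50.8% on C129.

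This ranking was unstable. With Spearman's rho 4 of the 10 genes stayed among the 10 highest, with cells at their own depth 3, and with another random draw of the thinning, added after seeing the data, 3. Among the 50 highest, 6 to 10 of the 10 stayed under the 5 alternatives. The Krüppel-like factor Klf6, an immediate early gene named after its values were seen, had a mean r of 0.297 and ranked 13th, and between 1st and 13th under the alternatives.

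By list, 23 of the 29 immediate early genes measured had a mean r above 0 (79.3%, against 49.1% of all genes), with a median of 0.117, and 4 reached 0.2. These were Ier3 at 0.303, Klf6 at 0.297, Fos at 0.267 and Atf3 at 0.240. Jund was lowest at -0.181. All 6 infundibulum and duct markers were above 0, with a median of 0.087, but none reached 0.2. Above 0 were also 3 of 5 bulge, 2 of 3 junctional zone, 1 of 4 sebocyte, 3 of 4 interfollicular and 1 of 5 basal markers. Adamts5 had an r of 0.136, Sdc4 of 0.186 and Timp3 of 0.017.

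Summing the thinned cells with and without an Adamts1 read on each plate and comparing the sums, paired by plate, called 0 of 6526 genes in edgeR (0.0%), with 257 at an unadjusted p under 0.05, and 0 in DESeq2. Without the low-count filter edgeR called 20 of 13606 genes (0.147%). These 4 sums come from 2 plates, which limits what the test can find. Of 26 immediate early genes tested, 21 were above 0 in Adamts1-positive cells, with a median log2 fold change of 0.49 against -0.06 over all genes. The 5 with an unadjusted p under 0.05, named after their values were seen, were Ier3 at 1.59 (SE 0.52), Atf3 at 1.19 (SE 0.37), Klf6 at 1.04 (SE 0.29), Junb at 0.80 (SE 0.29) and Fos at 0.77 (SE 0.19). In edgeR the adjusted p of each was 0.9998. The median relative to all genes lay between 0.42 and 0.80 over the alternatives. Timp3 was at 0.57 (SE 0.37), Sdc4 at 0.52 (SE 0.31) and Adamts5 at 0.84 (SE 0.67), and for Adamts5 the sign turned with cells at their own depth. Of 6 infundibulum and duct markers, 1 was below 0, Cst6 at -0.39 (SE 0.16), where 53.5% of all tested genes were. So were 4 of 4 junctional zone, 4 of 5 basal, 3 of 4 sebocyte, 3 of 7 bulge and 1 of 5 interfollicular markers.

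**Figure D5:**
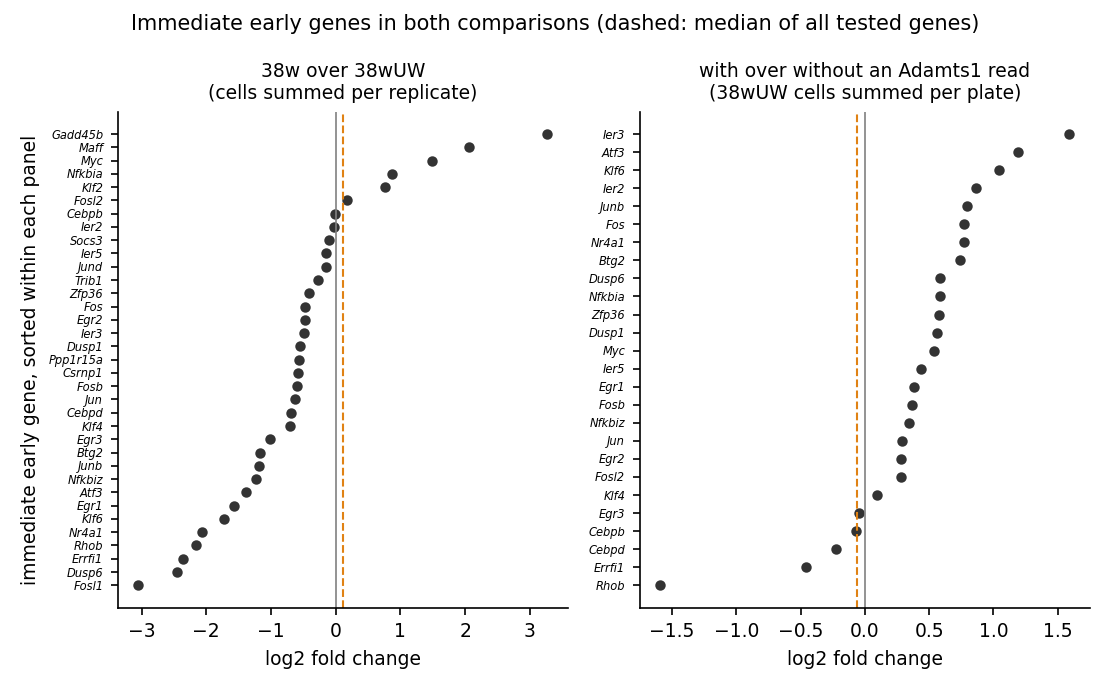
Log2 fold change (horizontal axis) of each tested immediate early gene (vertical axis, sorted within each panel), for 38w over 38wUW on the left and for 38wUW cells with over without an Adamts1 read on the right, with the median of all tested genes as a dashed line. On the left 29 of 35 points lie below 0 and on the right 21 of 26 lie above 0, and the panels share the 38wUW cells.

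Krt2, a keratin of the late interfollicular epidermis, came nearest to the threshold and was named after its values were seen. On C128 it had 0 reads in the 13 cells with an Adamts1 read and 1157 reads in 4 of the 51 cells without, of which 901 lay in 1 cell. On C129 it had 1 read in 1 of 16 cells with and 208 reads in 4 of 59 cells without, of which 181 lay in 1 cell. Its log2 fold change was -8.22 (SE 0.84, adjusted p = 0.0708 in edgeR), and its adjusted p ran from 8.61e-28 to 0.801 over the alternatives. The difference therefore rested on a few cells rich in Krt2.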

How the data were processed

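Single tdTomato-positive cells were profiled by Smart-seq2 and sequenced as single-end 75 bp reads without molecular identifiers. The authors quantified reads with Salmon 0.13.1 against the Ensembl 101 transcriptome (mm10, GRCm38), and the deposited values are estimated counts per gene and cell. Of the values above 0, 14.5% were not whole, and counts were rounded. Cells had passed the stated filters. All Adamts1 values were whole. Groups, replicates and plates were taken from the labels, and the columns of all 310 cells were used.

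CPM is reads of a gene per 1000000 reads summed over a replicate's cells. A cell with 1 read or more was called positive. Shares carry 95% Wilson intervals, and a count of 0 allows 3 counts. Cells were thinned to 20000 reads without replacement (seed 1). Replicate sums were compared with edgeR 4.0.16 (TMM, filterByExpr, quasi-likelihood test, Benjamini-Hochberg adjustment, R 4.3.3) and, as an alternative, DESeq2 1.42.0. Cells with and without an Adamts1 read were summed per 38wUW plate after thinning, with plate in the model. Correlations used log2 of reads per 10000 plus 1, within plates. Marker scores assigned each cell to its highest list. The functions were tested on simulated data. Gene models came from GENCODE (GRCm38) and promoters from RefSeq.

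Genes named were Adamts1 and the ADAMTS proteases, the 10 highest and 3 lowest mean r with 1 sign on both plates, the up to 10 higher and 5 lower called genes with an average log2 CPM of 4 or more, and per list the called genes or up to 4 with most reads. Adamts1, the lists and the tests were chosen with earlier results of these data known. Alternatives covered thinning, thresholds, filters, size factors, batch tag and leaving out cells, plates and replicates.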

Additional observations from a re-analysis of the deposited data

How the results depend on the processing

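The difference in the share of Adamts1-positive cells kept its direction and moved by less than the spread between replicates under each alternative run. Its log2 fold change of -6.50 was -9.45 with RepI from C118 only and -5.22 with equal weight per cell, and lay between -5.51 and -6.62 when RepL, RepM or RepN was left out. Without RepI the 38w side is at 0 reads and no fold was taken. The genes called between the groups, 0 in edgeR, were 67 with DESeq2, 1 without the low-count filter and 1 with plates as units and the batch tag as a block, and ranged from 0 to 1223 over the fits that omit 1 replicate (125 without RepI, 1223 without RepL, with the lone remaining 38w replicate assumed to vary like the other group). The single gene in both cases was Krt84, a keratin of tail scales, named after its values were seen. The genes called between cells with and without an Adamts1 read, also 0, were 20 without the low-count filter, and 1, Krt2, with DESeq2 size factors in edgeR, without the cell with most Adamts1 reads and with another random draw of the thinning. The last 2 of these were chosen after seeing the data. Leaving out a plate there could not be fitted, since it leaves 2 sums and no residual degrees of freedom. Of the 10 genes with the highest mean r, 4 stayed with Spearman's rho, 3 at the cells' own depth, 6 without the cell with most Adamts1 reads and 3 with another draw. Of 63 alternative values of r for the named genes, 9 moved by more than the spread between plates and 0 changed sign. That spread comes from 2 plates, so the count of moved values depends on how close the plates were. Ddr1, at -0.266 on each plate, counted as moved in every alternative, and Sirt1, at 0.093 on C128 and 0.550 on C129, in none. Myadm and Sirt1 had no value with another draw of the thinning, where they did not reach 10% of cells on both plates. Of 226 alternative fold changes of genes other than Adamts1, 6 changed sign. Between the groups these were Adamts5 at 0.76 and Cd44 at 0.22 with RepI from C118 only, Egfr at -0.075 without RepL (0.52 with it, and up to 0.98 without RepI) and Adamts18 at 0.022 without RepN (down to -4.65 without RepM). Between cells with and without an Adamts1 read they were Adamts5 at -1.33 at the cells' own depth and at -0.62 with another draw. The cause of these changes was not tested. The groups share no replicate labels, so samples were not paired by replicate, and the batch tag was the block that could be fitted. The number of cells limits the absence in RepL to a share of up to 4.0% of them, and 2 replicates per group limit each test.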

Other observations

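H2az1 and Hmgn2 were among the genes with the smallest unadjusted p between 38wUW cells with and without an Adamts1 read, and were named after their values were seen, as were Prss23, Commd10 and Knl1, which lay between them in that order. H2az1, a histone variant that is abundant in cycling cells, was at 892 CPM in cells with and 2126 CPM in cells without an Adamts1 read on C128, and at 616 and 1459 CPM on C129. It was found in 11 of 13 and 42 of 51 cells on C128 and in 13 of 16 and 49 of 59 on C129. Its log2 fold change was -1.26 (SE 0.23), with an unadjusted p of 0.000601 in edgeR that did not pass the adjustment over 6526 genes. Hmgn2, a nucleosome-binding protein, had 512 and 1166 CPM on C128 and 366 and 957 CPM on C129 (log2 fold change -1.30, SE 0.27), and it did not pass either. Without the low-count filter 20 genes were called, 1 higher and 19 lower in cells with an Adamts1 read, and H2az1 and Hmgn2 were among the 19. In that fit the median log2 fold change of all 13606 genes was itself -0.36, against -0.06 with the filter. The part of this shift in the split was not tested. H2az1 and Hmgn2 had a negative fold change in each alternative run.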
